A study of Arabidopsis thaliana with 4 samples.

Results

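Membrane transporter genes were followed in immature Arabidopsis inflorescences that had been cut from the plant. Members were the genes whose symbol opens with the letters of a transporter or channel family and goes on with a number, such as SWEET, CHX or GLR, with 1 probe set per gene. SWEET8 was left out. This gave 32 of the 13356 genes paired with a probe set, each with a single probe set: 13 SWEET sugar transporters, 8 glutamate receptor-like channels (GLR), 7 cation/proton exchangers (CHX), 2 metal transporters (ZIP), the nitrate transporter NRT2.5 and the purine permease PUP15. The rule names another 29 families, among them sucrose carriers, ammonium transporters, ABC transporters and aquaporins, and none of these had a member. Of the 13356 genes 1556 carry a symbol in the annotation and the others a locus code alone, so the absence of a family says nothing about its expression. The rule reads symbols and no measured value, but it was written with earlier results of these data known.

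Plants of ecotype Ler-0 were 5 weeks old, and inflorescences of their primary bolts were cut 11 h into a day of 16 h of light. The T24 group (2 arrays) was then held for 24 h at 21 °C in a closed black box on paper wetted with 50 mL of water. The T0 group (2 arrays) was frozen directly after cutting. Each time point pooled 10 inflorescences, both groups were detached from the plant, and no attached, lit or sugar-fed group is part of the comparison. The effects of cutting, darkness, the lost supply and the passing of 24 h therefore cannot be told apart. The titles number the arrays of a group as biological replicates, but no text says whether each had its own pool, so a p-value here rests on the spread among the arrays alone.

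Transporters set which solutes cross the membranes of a plant cell. SWEET proteins let sugars pass down their concentration gradient. In the usual division, members of clades I and II carry mainly hexoses, members of clade III mainly sucrose out of cells, and members of clade IV sit in the vacuole membrane. Flowers import sugar from the leaves, and several SWEET genes are known from stamens, nectaries and phloem. CHX proteins exchange potassium and other cations for protons, and many genes of the family are known from pollen. GLR proteins are cation channels opened by amino acids, ZIP proteins bring zinc and related metals into the cytosol, and NRT2 proteins take up nitrate at low supply.

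Values are log2 signals made by the authors with RMA, and a change is the T24 mean less the T0 mean, given with its standard error (SE) in limma's fit over all 22746 probe sets. A change passed at a Benjamini-Hochberg adjusted p under 0.05. Array medians over all probe sets were 6.09 and 6.08 at T24 and 6.19 and 6.29 at T0, so centring each array on its median would move every change up by 0.16. The values carry no detection calls, and no background level was estimated. Signals near or below 5, a limit set by choice, are called near the background here, and differences there may be compressed. Of the 32 genes, 17 had a mean of at least 5 over the 4 arrays and 15 did not. A gene counts as measured here if the annotation pairs a probe set with it alone, and 8730 probe sets were paired with no gene. Among markers of flower tissue, 4 of 10 floral identity genes were measured in this sense. The meristem genes UFO and CLV3 lay under 5 on all 4 arrays, while the carpel gene SPT had 7.76 and 8.49 at T24, against 6.72 and 7.85 at T0. SPL/NZZ, needed for spore formation, had 5.16 and 5.41 at T24, against 6.83 and 5.67 at T0, with groups apart but no call (-0.97 ± 0.45, SE).

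After 24 h, SWEET17 was lower and CHX15 and CHX6B were higher. The other 29 genes did not pass, which leaves 3 of 32 called. Over all probe sets 13.2% were called, so the share among the transporter genes lies near this background. By direction, 2 of 32 were higher where 6.39% of all probe sets were, and 1 of 32 was lower where 6.84% were. The median change was 0.097 over the 32 genes and -0.0048 over all probe sets. Both groups' arrays were fully apart for 10 of the 32 genes, 9 higher and 1 lower at T24. Over all probe sets 57.4% were apart in that way, 27.4% higher and 30.0% lower. At an unadjusted p under 0.05 there were 4 of 32, with ZIP9 as the one added, and 30.4% of all probe sets. Leaving out T24 replicate 1, T24 replicate 2, T0 replicate 1 or T0 replicate 2 ended the calls of all 3 genes, as it did for every probe set in limma (0 of 22746 each time, with 5038, 4888, 5942 and 5844 at p under 0.05 before adjustment).

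**Figure D1:**
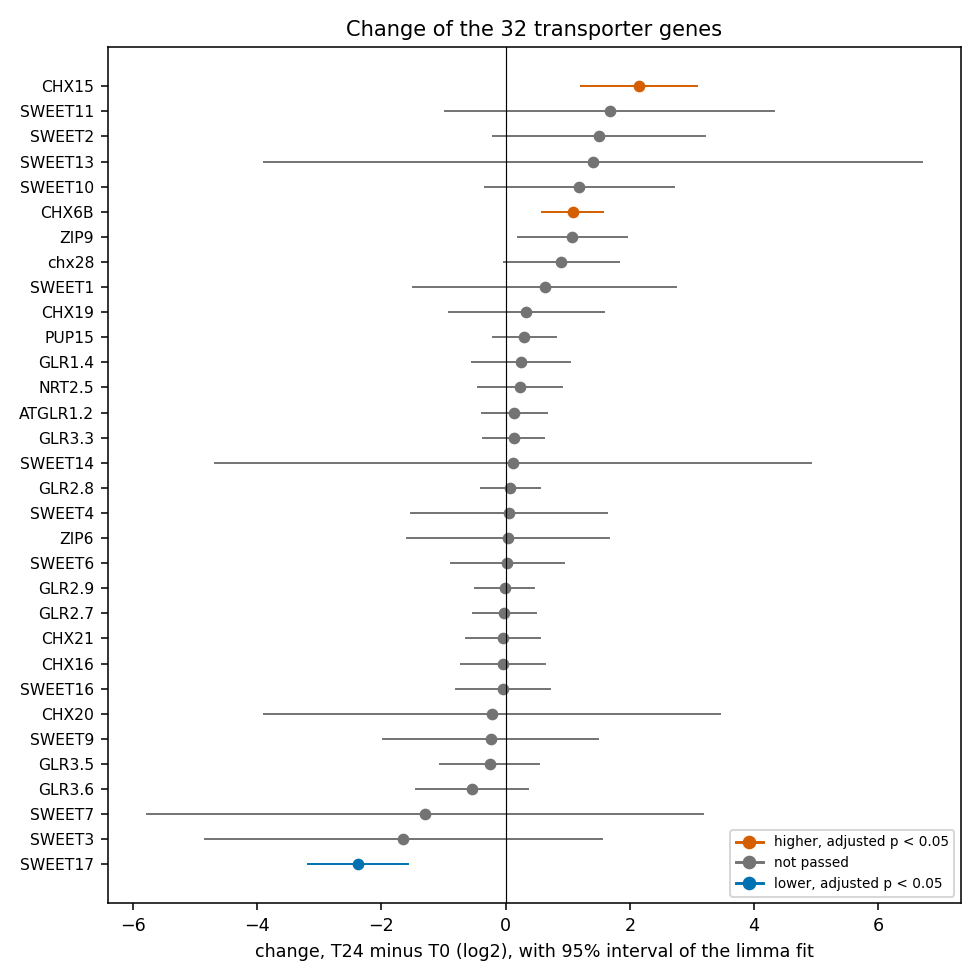
Change of each of the 32 transporter genes, T24 minus T0 on the log2 scale, with the 95% interval of the limma fit (2 arrays per group). CHX15 and CHX6B lie to the right of 0 and SWEET17 to the left, and the intervals of SWEET7, SWEET13, SWEET14 and CHX20 run far to both sides of 0.

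SWEET17 had the largest change of the sugar transporters. It encodes a fructose transporter of the vacuole membrane. Its signal was 5.47 and 4.80 on the T24 arrays, against 7.49 and 7.52 on the T0 arrays. Both T24 arrays lay well under both T0 arrays, and the T24 values were near the background. The mean was 5.13 ± 0.47 at T24 and 7.50 ± 0.02 at T0 (SD, n = 2 each). This is a change of -2.37 ± 0.29 (SE), 5.17-fold lower, with an adjusted p of 0.023 in limma. With each array centred on its median the change was -2.22. Markers of the tapetum, the nurse tissue of the anther, were also lower at T24 in 2 of the 4 measured of 7, SHT by a change of -6.19 ± 0.39 and ATA27 by a change of -4.50 ± 0.82 (SE), while A9 and AMS did not pass. The 4 genes' signals, summed on the linear scale, came to 1825 and 368 at T24, against 13701 and 4399 at T0. Over all probe sets 6.84% were lower, and with 4 markers the count of 2 is given as a description. The part of the tapetum in the change of SWEET17 was not tested, and in a bulk tissue fewer cells of a type and less RNA per cell cannot be told apart. SWEET16, the other measured gene of clade IV, had 3.49 and 4.09 at T24 and 3.88 and 3.78 at T0, all near the background. Its change of -0.042 had a 95% interval of -0.80 to 0.72 and turned positive with median centring, and no call was made.

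In clade III, whose proteins are known to export sucrose, 5 genes were members and none passed in limma. Nor did any have an unadjusted p under 0.05 (0 of 5). Over all probe sets the shares were 13.2% and 30.4%, and with 5 genes these counts are given as a description. The changes of the 5 genes ran from -0.24 to 1.67, with 4 of 5 above 0. SWEET11, which works in the phloem of leaves, gave 11.15 and 9.24 at T24, against 9.48 and 7.57 at T0. The higher T0 array lay above the lower T24 array, so the groups overlapped. The difference between groups, 1.67 ± 0.96 (SE), was close to the gap between the arrays of one group. Its 95% interval ran from -0.98 to 4.32 (adjusted p = 0.346 in limma). This fit takes no account of replicate numbers. Taken by number, the T24 array less the T0 array gave 1.68 and 1.67, though no label pairs these arrays.

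SWEET10, known as a gene switched on in the shoot apex at the start of flowering, had 10.27 and 10.10 at T24, against 8.26 and 9.74 at T0. Both T24 arrays were above both T0 arrays, by little in the case of the nearest values. The change of 1.19 ± 0.55 (SE) did not pass (adjusted p = 0.253 in limma, 95% interval -0.33 to 2.70). The nectary gene SWEET9, needed for nectar secretion, had 4.92 and 6.25 at T24 and 5.29 and 6.37 at T0. Its groups overlapped almost fully, with a change of -0.24 ± 0.63 (SE).

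SWEET13 and SWEET14, which are known to act in anthers and also to carry gibberellin, varied more between the arrays of a group than between the groups. SWEET13 stood at 9.85 and 6.26 at T24, against 8.69 and 4.60 at T0. SWEET14 stood at 8.87 and 5.71 at T24, against 9.06 and 5.28 at T0. In both genes the array numbered 1 was high and the array numbered 2 low, at T24 as at T0. The SE of the change was 1.92 for SWEET13 and 1.74 for SWEET14, against changes of 1.41 and 0.12. Their 95% intervals, -3.89 to 6.71 and -4.67 to 4.91, reach far to both sides of 0. This fit, which takes no account of replicate numbers, therefore settles no direction for either gene. Between same-numbered arrays, T24 less T0 was 1.16 and 1.66 for SWEET13 and -0.19 and 0.43 for SWEET14. No label pairs these arrays.

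**Figure D2:**
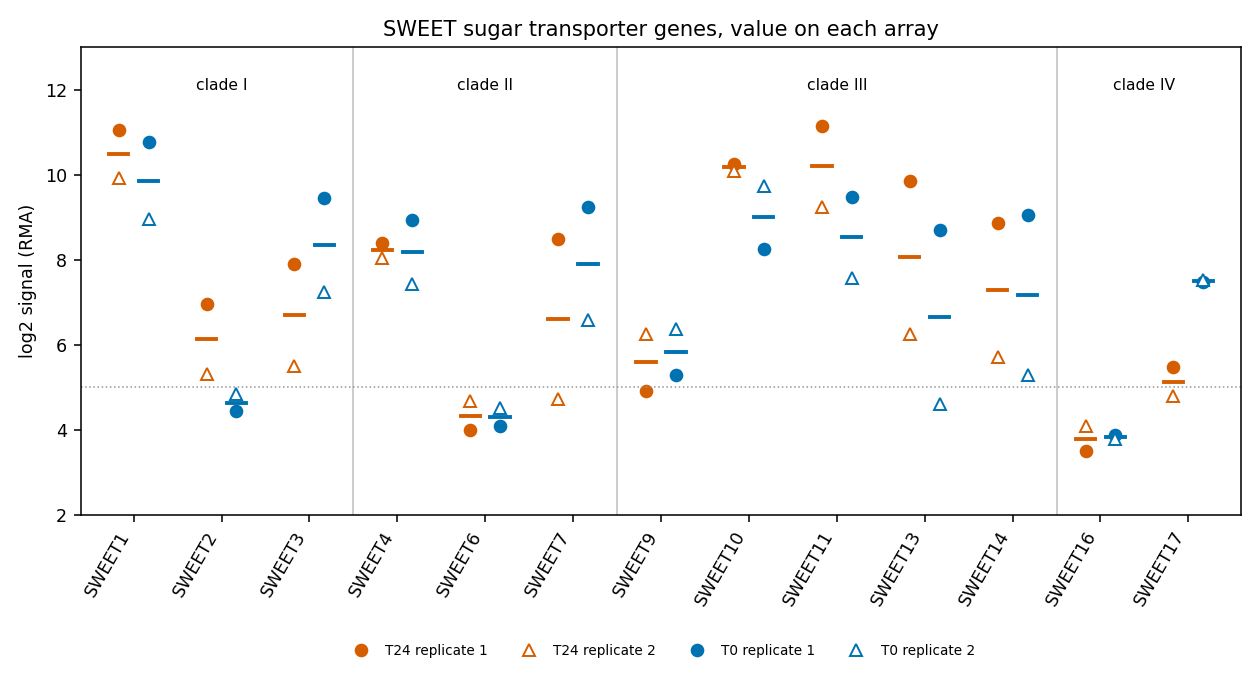
Log2 RMA signal of the 13 SWEET genes on each array, with T24 left of T0 for each gene, filled circles for replicate 1, open triangles for replicate 2, short lines for group means and a dotted line at 5. SWEET17 drops to 5.47 and 4.80 at T24, while for SWEET13 and SWEET14 the array numbered 1 lies far above the array numbered 2 in both groups.

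Clade I had 3 members, with 0 calls in limma and 0 p-values under 0.05 before adjustment. Over all probe sets the shares were 13.2% and 30.4%, so counts of 0 among 3 genes are only a description. SWEET1, a glucose transporter of the plasma membrane, had 11.06 and 9.93 at T24, against 10.77 and 8.96 at T0. The groups overlapped, and the change was 0.63 ± 0.77 (SE). SWEET2, a glucose transporter of the vacuole membrane known from roots, had 6.96 and 5.31 at T24, against 4.44 and 4.83 at T0. Both T24 arrays were above both T0 arrays, and both T0 values were near the background. Its change of 1.5 ± 0.62 (SE) had an adjusted p of 0.207 in limma and a 95% interval of -0.20 to 3.20. SWEET3 went the other way in its means, with 7.91 and 5.51 at T24, against 9.46 and 7.25 at T0. The higher T24 array lay above the lower T0 array, and the change of -1.65 ± 1.16 (SE) did not pass (adjusted p = 0.442 in limma). The fit takes no account of replicate numbers. Taken by number, the T24 array of SWEET3 less the T0 array gave -1.55 and -1.74, though no label pairs these arrays.

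Clade II had 3 members and again 0 calls in limma and 0 p-values under 0.05 before adjustment, beside 13.2% and 30.4% of all probe sets. SWEET7 had 8.49 and 4.73 at T24, against 9.23 and 6.59 at T0, with the array numbered 1 high in each group. Its change of -1.30 ± 1.62 (SE) had a 95% interval of -5.78 to 3.18, the widest toward a decrease among the 32 genes. SWEET4, which carries glucose and fructose, had 8.40 and 8.05 at T24, against 8.93 and 7.42 at T0. The T24 arrays lay between the T0 arrays, and the change was 0.051 ± 0.57 (SE), with an interval of -1.53 to 1.63. SWEET6 lay near the background on all arrays, between 3.99 and 4.67 at T24 and between 4.08 and 4.52 at T0.

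The gap between arrays of the same group was a feature of several of these genes. In SWEET3, SWEET7, SWEET13, SWEET14 and the exchanger gene CHX20, replicate 1 exceeded replicate 2 by more than 2 log2 units at T24 and again at T0. For SWEET13 the gap was 3.60 at T24 and 4.09 at T0, and for CHX20 it was 2.32 at T24 and 2.96 at T0. These 5 were among the 17 transporter genes with a mean of at least 5. Of the 13356 genes paired with a probe set, 7920 had such a mean. Among these, 60 (0.758%) had a gap of that size and direction in both groups, and 29 (0.366%) had one in the opposite direction. No transporter gene showed the opposite gap at that size. The median gap, taken without sign, was 1.64 at T24 and 1.81 at T0 over the 11 SWEET genes with such a mean, against 0.359 at T24 and 0.418 at T0 over the 7920 genes. The tapetum markers ran the same way: over the 4 measured genes, the mean log2 signal was 7.28 on replicate 1 and 5.97 on replicate 2 at T24, and 10.48 on replicate 1 and 9.21 on replicate 2 at T0. The tapetum gene A9 had gaps of 2.85 at T24 and 2.00 at T0. The part of tissue make-up in these gaps was not tested. The pattern was noticed in the values and is given as a description.

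**Figure D3:**
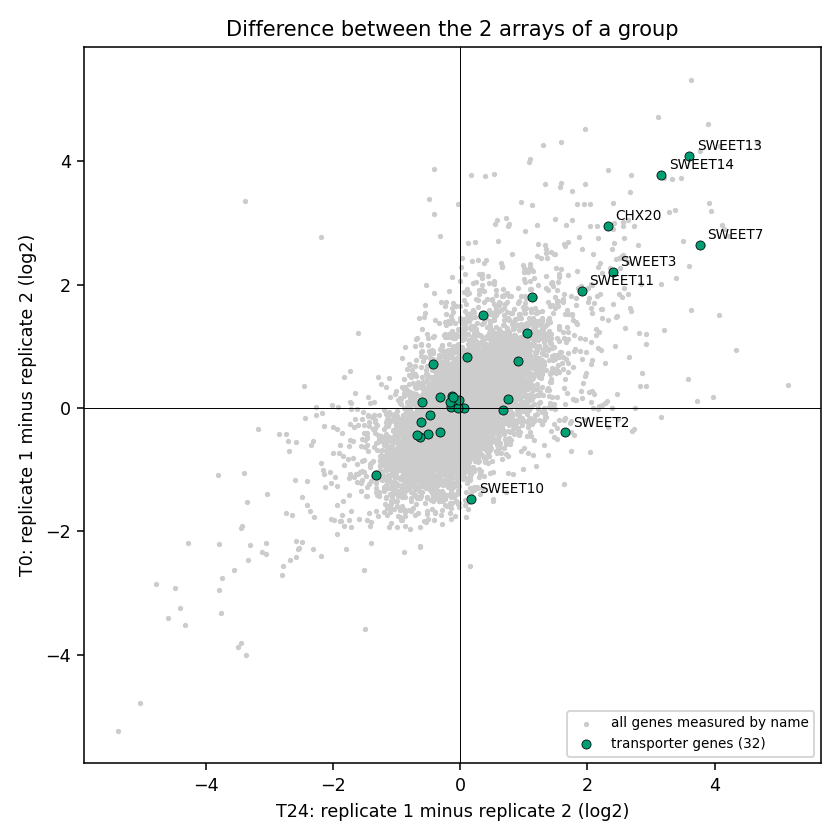
Replicate 1 minus replicate 2 on the log2 scale at T24 (horizontal) and at T0 (vertical). Each gene paired with a probe set is 1 grey point, and green points mark the 32 transporter genes. SWEET3, SWEET7, SWEET13, SWEET14 and CHX20 lie above 2 on both axes.

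Among the 7 CHX genes 2 rose, CHX15 and CHX6B, and the other 5 did not pass. Over all probe sets 13.2% were called and 6.39% were higher, and with 7 genes the count of 2 is given as a description. CHX15 had 6.08 and 6.52 at T24, against 4.51 and 3.80 at T0. Both T0 arrays were near the background and both T24 arrays above it. The mean was 6.30 ± 0.31 at T24 and 4.15 ± 0.50 at T0 (SD, n = 2 each). The change came to 2.15 ± 0.34 (SE), 4.43-fold, with an adjusted p of 0.0336 in limma. CHX6B had 5.10 and 5.24 at T24, against 4.10 and 4.08 at T0, so the arrays of each group lay close together. Its change was 1.08 ± 0.18 (SE), 2.11-fold, with an adjusted p of 0.0368 in limma. All 4 of its values lie close to the background, its mean over the arrays was 4.63, and a filter at a mean of 5, under which 22.1% of the remaining probe sets were called, removes it from the test. Median centring gave 2.30 for CHX15 and 1.23 for CHX6B.

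Pollen markers were also higher at T24. Of 3 pollen genes 2 were measured and both passed: AT59, a pectate lyase of pollen, changed by 4.20 ± 0.23 (SE) and HTR10, a sperm cell histone, by 2.61 ± 0.42 (SE). Their signals, summed on the linear scale, came to 1795 and 1822 at T24, against 159 and 102 at T0. Tapetum markers moved the other way, with 2 of 4 measured genes lower and 0 higher. Over all probe sets 6.39% were higher and 6.84% lower, and with 2 and 4 genes these marker counts are given as a description. Some other genes known from pollen did not pass, given as examples outside the marker list and not as a full list. SWEET5, described below, changed by 0.37 ± 1.46, CHX21 by -0.038 ± 0.21 and ATGLR1.2 by 0.14 ± 0.19 (SE). Of these, CHX21 and ATGLR1.2 had means under 5. The part of pollen or tapetum in the changes of CHX15 and CHX6B was not tested.

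The remaining exchangers had smaller differences or wide gaps. The exchanger gene chx28 had 4.98 and 4.88 at T24, against 4.44 and 3.62 at T0, all under 5. Its T24 arrays were above its T0 arrays, with a change of 0.90 ± 0.34 (SE) and an adjusted p of 0.176 in limma. CHX20, known from guard cells, had 7.14 and 4.83 at T24, against 7.68 and 4.73 at T0. The groups overlapped in full, and the 95% interval of the change ran from -3.89 to 3.45. CHX19, of a group of exchangers in inner membranes, had 7.24 and 6.33 at T24, against 6.83 and 6.07 at T0, with a change of 0.33 ± 0.45 (SE). CHX16 and CHX21 lay near the background on all arrays, between 3.09 and 4.09 at T24 and between 3.19 and 4.16 at T0. CHX21 is known from pollen tube guidance, and its change of -0.038 had an interval of -0.63 to 0.55.

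**Figure D4:**
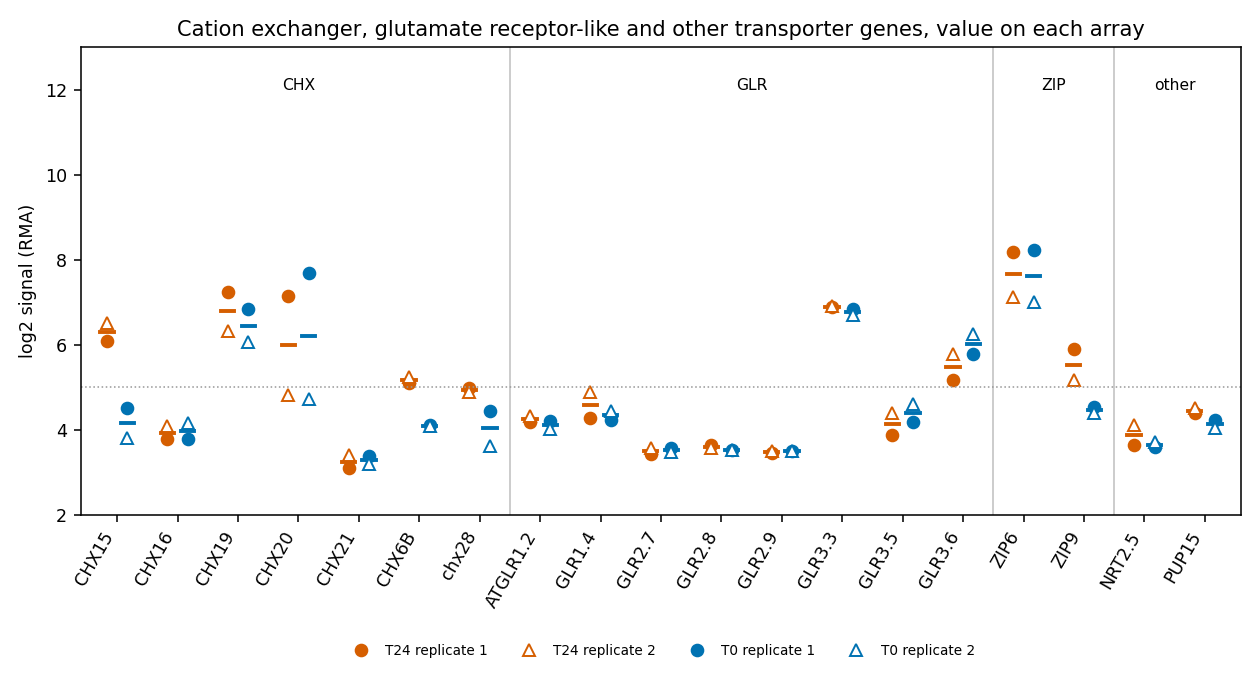
Log2 RMA signal of the 7 CHX, 8 GLR, 2 ZIP and 2 other transporter genes on each array, with T24 left of T0, filled circles for replicate 1, open triangles for replicate 2, short lines for group means and a dotted line at 5. CHX15 lies at 6.08 and 6.52 at T24 and below 5 at T0, and the GLR genes differ little between the groups.

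None of the 8 GLR genes passed in limma, and 0 had an unadjusted p under 0.05. Over all probe sets the shares were 13.2% and 30.4%, and with 8 genes these counts are given as a description. The changes of the 8 genes ran from -0.54 to 0.25, with a median of 0.030, and their SEs were small, with a median of 0.19. Of the 8, 2 had a mean of at least 5, GLR3.3 and GLR3.6, both of which carry electrical signals between leaves after wounding. GLR3.3 had 6.88 and 6.91 at T24, against 6.83 and 6.70 at T0. Its 4 arrays lay within a narrow range, and the change of 0.13 had a 95% interval of -0.36 to 0.62, so that a change of 1 or more lies outside it. GLR3.6 had 5.16 and 5.79 at T24, against 5.78 and 6.25 at T0. The groups just overlapped, and the change was -0.54 ± 0.33 (SE), with an adjusted p of 0.366 in limma.

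The other 6 GLR genes had means under 5, where differences may be compressed. GLR2.7, GLR2.8 and GLR2.9 have successive locus codes (AT2G29120, AT2G29110 and AT2G29100) and are known for calcium signals in immune responses. Their values lay between 3.42 and 3.63 at T24 and between 3.47 and 3.57 at T0. ATGLR1.2, known from pollen tube growth, had 4.19 and 4.32 at T24, against 4.21 and 4.02 at T0. Its groups overlapped, with a change of 0.14 ± 0.19 (SE). GLR1.4, a channel opened by methionine when made in frog oocytes, had 4.28 and 4.89 at T24, against 4.22 and 4.45 at T0. GLR3.5 had 3.88 and 4.40 at T24, against 4.19 and 4.61 at T0, a change of -0.26 ± 0.29 (SE).

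The remaining 4 genes had no call. ZIP9, a metal transporter gene known to respond to zinc shortage, had 5.91 and 5.16 at T24, against 4.54 and 4.39 at T0. Both T24 arrays were above both T0 arrays, and its change of 1.07 ± 0.32 (SE) had an interval that leaves out 0 (0.20 to 1.95) but an adjusted p of 0.111 in limma. ZIP6 of the same family had 8.18 and 7.13 at T24, against 8.22 and 7.0 at T0. The T24 arrays lay between the T0 arrays, and the change was 0.043 ± 0.59 (SE). NRT2.5, a nitrate uptake gene of nitrogen-starved plants, stayed near the background, at 3.63 and 4.11 at T24 and 3.59 and 3.70 at T0. PUP15 had 4.39 and 4.50 at T24, against 4.23 and 4.05 at T0, a change of 0.30 ± 0.19 (SE), with both T24 arrays above both T0 arrays.

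**Figure D5:**
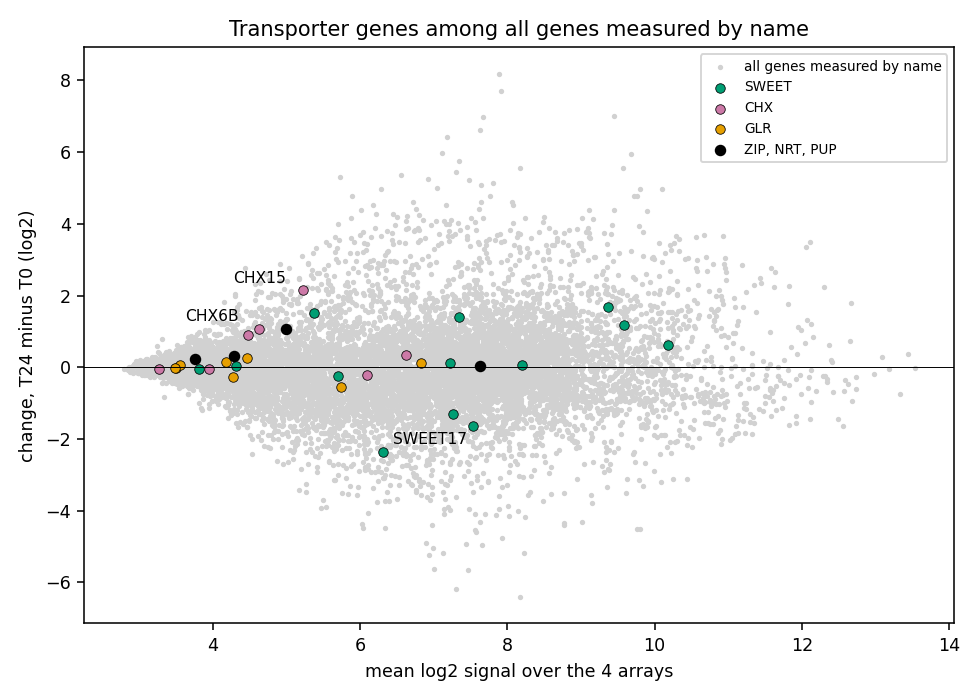
Change, T24 minus T0, against the mean log2 signal over the 4 arrays. Each gene paired with a probe set is 1 grey point, and coloured points mark the transporter families. CHX15, CHX6B and SWEET17 are labelled, and the GLR genes lie between -0.54 and 0.25.

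A list of 81 transport genes by locus code covered well-known carriers of sugar, nitrogen, water and ions beyond the symbols. Of these 7 were already members, 4 more were measured, and the other 70 are not analysed here. None of the 4 passed in limma, and 0 had an unadjusted p under 0.05, beside 13.2% and 30.4% of all probe sets. SWEET5 (AtVEX1), a clade II gene of the vegetative cell of pollen, had 7.68 and 5.71 at T24, against 8.15 and 4.51 at T0. It shared the high replicate 1 of SWEET13 and SWEET14, with gaps of 1.96 at T24 and 3.64 at T0. SWEET15 (SAG29), a clade III gene known to rise in senescing leaves, had 7.30 and 5.95 at T24, against 6.78 and 5.93 at T0. Its groups overlapped, with a change of 0.27 ± 0.59 (SE) and a 95% interval of -1.35 to 1.89. TMT1 and TMT2, which load hexoses into the vacuole, had changes of 0.17 ± 0.49 and 0.28 ± 0.67 (SE).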

How the data were processed

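The authors deposited log2 signals of 22746 probe sets on 4 arrays in a single table. RMA is the method that the submitters' processing notes name, and its version is not given in the sources used here. The log base was inferred from RMA and from the range of the values (2.71 to 14.44). No further normalization was applied. The platform annotation pairs 13513 probe sets with 1 gene, 503 with several and 8730 with none; 13436 of the first matched the RefSeq gene table of TAIR10.1, used for names and locus codes. Groups and replicate numbers come from the titles. The difference between T24 and T0 was estimated for every probe set with limma 3.58.1 in R 4.3.3 (lmFit, eBayes, no block, 2 residual degrees of freedom). Tests were two-sided, with Benjamini-Hochberg adjustment over the whole table. The code was also run on simulated data with independent arrays. That run cannot show how the fit behaves where replicate differences are shared between the groups. With 2 arrays per group, their number limits the precision. The members and lists were chosen with earlier results of these data known. Every member was described. The rule for names took each member that passed and, per role, the 2 with the highest means and the largest change that did not pass. SWEET clades were assigned from general knowledge after values were seen. Alternatives were 7 other settings and 4 fits without 1 array.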

Additional observations from a re-analysis of the deposited data

How the results depend on the processing

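The calls of SWEET17, CHX15 and CHX6B held with a trended or robust variance, with quantile normalization, with median centring and with 1 probe set per gene (1636 calls, fewer being tested). Median centring raised the members' median change to 0.25 and turned the sign of 5 members without a call, none of which had changed by more than 0.042. Under a filter at a mean of 5, 17 members were tested and 1 of them rose, CHX6B being removed. Leaving out 1 array gave 0 probe sets, 0 members that rose and 0 that fell each time, with few degrees of freedom left and a lone array assumed to vary like the other group; the smallest adjusted p ran from 0.054 to 0.0936. Without 1 array the change of SWEET17 ran from -2.71 to -2.04, that of CHX15 from 1.79 to 2.5 and that of CHX6B from 1.01 to 1.15, while 5 to 11 members without a call turned their sign, SWEET7 and SWEET13 among them. In the fit that takes replicate numbers as a block (replicate block), 6528 probe sets (28.7%) passed, and 5 members rose and 2 fell: SWEET11 (adjusted p = 0.0155), SWEET13 (0.0259), SWEET3 (0.0164) and ZIP9 (0.048) joined the 3. For SWEET11 the same-numbered arrays differed by 1.68 and 1.67. Replicate differences at T24 and T0 had a correlation of 0.63 over the whole table and 0.86 over the 32 members. With 2 pairs and no label on what a shared number means, the pairing is a hint from the data and not part of the design. Low signals limit what can be seen: 35.5% of probe sets averaged under 5.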

Other observations

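Several genes of the NRT1/PTR family (NPF), which carry nitrate, hormones, glucosinolates or peptides, were measured under other symbols. They were found through RefSeq synonyms after values had been seen, and are given as a description. Of 11 such genes 1 was higher at T24 and 0 were lower, a share near that over all probe sets (6.39% higher and 6.84% lower). NPF6.2 (AT2G26690), known as the nitrate transporter of leaf petioles, had 9.12 and 9.13 at T24, against 7.04 and 6.52 at T0. Both T24 arrays lay far above both T0 arrays, with a change of 2.34 ± 0.25 (SE), 5.08-fold, and an adjusted p of 0.0195 in limma.

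The other 10 did not pass, and 3 of them had an adjusted p between 0.100 and 0.112 in limma. NPF6.4 (AT3G21670) had 10.21 and 10.24 at T24, against 9.16 and 7.88 at T0. NPF3.1 (AT1G68570) had 9.06 and 9.27 at T24, against 11.23 and 10.09 at T0. NPF4.3 (AT1G59740) had 7.04 and 7.27 at T24, against 9.35 and 8.15 at T0. In these 3 genes the groups did not overlap and the T0 arrays were further apart than the T24 arrays. Groups were apart for 8 of the 11 NPF genes, 5 higher and 3 lower at T24. Over all probe sets 57.4% were apart, 27.4% higher and 30.0% lower, and with 11 genes the counts are given as a description. The glucosinolate transporters GTR1 and GTR2 had changes of -0.88 ± 0.51 and 0.23 ± 0.64 (SE), and their groups overlapped.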
